A study of Homo sapiens with 44 samples.

Results

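OVCAR5 cells exposed to a 1/200 dilution of supernatant from a co-culture of tumor cells with T cells were compared with unstimulated cells. The comparison used 8 libraries of the 44 in the series, 4 a side, chosen by their treatment labels and matched at 2, 6, 12 and 24 h of continuous exposure. OVCAR5 is an ovarian carcinoma line, and every library came from a version labelled as a CFP-positive reporter that senses IFNγ. All groups shared this genotype, and whether the line is a single clone was not stated. The other treatments were supernatant at 1/2 and 1/20000, IFNγ at 0.01, 1 and 100 ng/ml, TNFα at 0.1, 1 and 10 ng/ml, and IFNγ 100 ng/ml with TNFα 10 ng/ml, each as 1 library at each of the 4 durations. The labels state neither the cytokine content of the supernatant nor the T cells it came from. RNA was measured as poly(A)-selected, stranded libraries, with estimated reads per gene.

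Activated T cells release IFNγ, TNFα and other cytokines that act on the tumor cells beside them. IFNγ binds a receptor that activates JAK kinases and transcription factors of the STAT family, and these factors and IRF1 then switch on genes of antigen presentation, of defense inside the cell and of T cell recruitment. TNFα acts mainly through NF-κB, whose first targets include its own inhibitors, adhesion molecules and chemokines.

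The cells carried epithelial markers, and the summed level of T cell markers was low. The markers below mix epithelial and ovarian genes, so their sum does not by itself show ovarian origin. ESR1 had 4 reads over the supernatant libraries and 2 over the unstimulated ones. The summed level of 12 epithelial and ovarian carcinoma markers was 3310 to 3759 normalised read counts (CPM, scaled to library size) with supernatant 1/200 and 3266 to 3396 CPM without stimulus, and 10 of the 12 passed the filter on low counts, with WT1 and ESR1 left out. The summed level of 16 T cell markers was 1.40 to 3.96 CPM with supernatant 1/200 and 2.56 to 3.54 CPM without. In each group 10 of the 16 had no reads, and CD3E, CD3G, PTPRC, TRAC, GZMB, PRF1, IFNG and IL2 were at 0 in all 8 libraries. CD8A and LCK held most of the T cell marker reads. Of the 16, 1 passed the filter on low counts, and it was not called. Depth was 10198003 to 15179475 estimated reads with supernatant 1/200 and 10613652 to 13193457 without. The mitochondrial share was 8.31% to 8.84% and 8.21% to 9.81%. Each of the 8 libraries was most similar to another library of its own duration. Sample numbers in the library names separate 2 and 6 h from 12 and 24 h, so a sequencing pool, if they mark one, cannot be told apart from early against late duration. In bulk RNA, a change in how many cells respond and a change in RNA per cell cannot be told apart.

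Supernatant at 1/200 changed 1564 of the 14890 genes tested, or 10.5%, of which 1039 (6.98%) rose and 525 (3.53%) fell. The effect was fitted with edgeR's quasi-likelihood test at the mean log2 duration, which corresponds to 7.67 h, and genes with a Benjamini-Hochberg adjusted p under 0.05 were called. Rises were larger than falls: 297 genes rose by over 1 on the log2 scale and 130 by over 2, while 33 and 6 fell that far. The falls depended on the fit more than the rises: 476 genes rose and 41 fell without the duration factor, and 376 rose and 96 fell when the 8 libraries alone were fitted. The 8-library fit, like the fits of early or late libraries alone, also left out the slope terms. Leaving out the slopes with all 44 libraries kept gave 426 rises and 94 falls. The early libraries (2 and 6 h) gave 46 rises and 1 fall, and the late ones (12 and 24 h) 698 and 359. The median log2 fold change was 0.47 among the genes that rose and -0.35 among those that fell. There was 1 library for each treatment and duration, so the p-values measure only the spread of these libraries around their fitted courses, and nothing in the labels says that they came from separate cultures.

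The largest rises among the genes that met the naming rule were in enzymes, ubiquitin-like and guanylate-binding proteins and chemokines known as IFNγ targets. IDO1, the enzyme that starts tryptophan breakdown, was at 0, 0, 1.49 and 2.73 CPM without stimulus and at 2.14, 230, 646 and 1034 CPM with supernatant at 2, 6, 12 and 24 h, a log2 fold change of 9.86 ± 0.34 (SE, adjusted p = 2.91e-15). UBD, a ubiquitin-like modifier, went from 0, 0, 0.875 and 3.35 CPM to 11.9, 54.6, 108 and 158 CPM, with a log2 fold change of 8.36 ± 0.57 (adjusted p = 9.74e-10). The 2 h supernatant value of IDO1 lay within the unstimulated range, and the UBD groups did not overlap. The share of all genes without overlap was not determined, so this is description only. With unstimulated levels of 0 at 2 and 6 h, the fitted folds and SE of both genes are uncertain. ETV7, an ETS-family transcription factor, was at 0 to 0.22 CPM without stimulus and at 2.72, 22.1, 20.7 and 18.3 CPM with it (6.92 ± 0.32). SLC15A3, a lysosomal peptide and histidine transporter, reached 20.5 CPM at 24 h from 0.705 CPM (4.54 ± 0.31). Of the other genes named by the same rule, GBP7, CXCL9, GBP5, CXCL11, CXCL10, GBP1, GBP4 and NLRC5 are described with their groups.

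The remaining 3 genes with large rises need care. OR2I1P, annotated as an olfactory receptor family gene, rose by 6.38 ± 0.59, but it overlaps UBD on chromosome 6 on the opposite strand, and the counting strand is not given in the sources used here. ENSG00000258666, a transcript antisense to WARS1, rose by 5.68 ± 0.68, and its reads carry the same doubt. LINC02605 had 116 reads over the 4 supernatant libraries and 3 over the unstimulated ones, a ratio of 40.6 (95% exact interval 13.6 to 199.9, counting error only).

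The genes of the interferon and JAK-STAT pathway rose in 14 of 19 tested cases and none fell, against the 6.98% and 3.53% of all genes given above. This list and those below were chosen with earlier results of these data known, so their counts describe the lists and are not a test. The receptor chains for IFNγ did not pass the test, with log2 fold changes of 0.01 ± 0.09 for IFNGR1 and 0.03 ± 0.17 for IFNGR2. IRF1, a transcription factor induced early by IFNγ, was at 58.6, 34.2, 37.5 and 53.5 CPM without stimulus and at 921, 736, 595 and 422 CPM with it (3.87 ± 0.33, adjusted p = 3.06e-08). Its supernatant level was highest at 2 h and lowest at 24 h, and every supernatant library lay above every unstimulated one. How many of all genes share this separation was not determined. IRF8, BATF2 and IRF9, which are transcription factors of interferon responses, rose by 3.56 ± 0.31, 3.30 ± 0.22 and 2.33 ± 0.09. STAT2, a partner of IRF9, rose by 1.54 ± 0.13, the kinase JAK2 by 1.04 ± 0.24 and STAT3 by 0.68 ± 0.12. JAK2 was at 21.1 CPM at 2 h, beside 20.7 CPM without stimulus, and at 77.7 CPM at 6 h. In the fit of the 8 libraries alone 9 of the 19 genes were called higher, and in the early libraries 4.

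The upstream stretch of IRF1 is shown because it holds both a GAS motif, an element that STAT factors bind, and a κB motif. The RefSeq promoter (GRCh38.p14, chr5:132490794-132490923, minus strand, bases -150 to -21 from the RefSeq start) reads 5′ to 3′, with the GAS motif at -124 and the κB motif at -50 in capitals.
IRF1: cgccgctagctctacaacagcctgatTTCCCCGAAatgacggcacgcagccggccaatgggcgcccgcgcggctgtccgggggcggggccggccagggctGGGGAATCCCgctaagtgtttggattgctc
The GAS motif searched was TTCNNNGAA, the ISRE motif GAAA, any 2 bases and GAAA, and the κB motif its consensus, each on both strands of the upstream part of the window. Of 35116 RefSeq promoters, 6.57% held the GAS motif, 3.02% the ISRE and 9.96% the κB consensus in the whole upstream part of the window. That part is longer than any stretch printed here, so these shares are not a background for the stretches. A match describes letters only.

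Feedback inhibitors of cytokine signalling rose in 3 of 7 cases. SOCS1, which blocks JAK kinases, was at 0.226 to 0.528 CPM without stimulus and at 1.85 to 2.25 CPM with it (2.34 ± 0.42, adjusted p = 0.000256). SOCS3 rose by 1.05 ± 0.18, with 61.8 CPM at 2 h and 34.6 CPM at 24 h, and USP18, which limits type I interferon signalling, rose by 1.88 ± 0.19. CISH and SOCS2, known targets of STAT5, did not pass the test (0.59 ± 0.35 and -0.52 ± 0.40). Across 6 tested targets of STAT5 and STAT6, the factors of IL-2 and IL-4 signalling, IL4R alone rose (0.56 ± 0.10).

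All 5 guanylate-binding proteins tested in this list rose, although the fit of the 8 libraries alone called 1 and that of the early libraries 2. These GTPases act against bacteria and viruses inside the cell. GBP1 was at 3.41 to 8.72 CPM without stimulus and at 50.6, 322, 454 and 378 CPM with supernatant (5.54 ± 0.32, adjusted p = 5.13e-11). GBP5 was at 0.176 to 1.14 CPM and then at 6.22, 46.0, 110 and 187 CPM (6.79 ± 0.48). GBP4 rose by 5.20 ± 0.38, GBP2 by 3.19 ± 0.39 and GBP3 by 2.17 ± 0.17. GBP3, already at 34.4 to 40.6 CPM without stimulus, had the smallest rise of the family, and the GBP2 groups overlapped because its 2 h supernatant value, 23.7 CPM, lay below the unstimulated value at 24 h. GBP7, outside the list, had 190 reads over the supernatant libraries and 2 over the unstimulated ones, a ratio of 99.8 (95% exact interval 27.3 to 830.2).

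Antiviral genes rose in 30 of 36 cases and none fell. The late libraries alone also gave 30, but the early libraries gave 2 and the 8 libraries alone 7. XAF1, which promotes apoptosis, was at 1.54 to 4.84 CPM without stimulus and at 6.13, 78.9, 93.1 and 112 CPM with supernatant (4.35 ± 0.39). EPSTI1 rose by 4.35 ± 0.31 and TRIM22, a ubiquitin ligase that restricts viruses, by 4.28 ± 0.29. The RNA-degrading 2-5A system rose unevenly, with 3.12 ± 0.34 for OAS2, 1.89 ± 0.22 for OAS3 and 1.22 ± 0.24 for OAS1. Among classical type I interferon targets, MX1 rose by 2.01 ± 0.20, IFIT3 by 1.80 ± 0.22 and ISG15 by 0.96 ± 0.12. IFIT1 (0.21 ± 0.14, adjusted p = 0.408), IFIT2 (0.35 ± 0.13), OASL (0.29 ± 0.11), RSAD2 (0.56 ± 0.19), MX2 (0.08 ± 0.05) and HERC5 (-0.51 ± 0.18) did not pass the test. IFIT1 was at 23.7, 39.9, 42.3 and 70.2 CPM with supernatant and at 23.2, 28.3, 39.8 and 60.6 CPM without, so both series were higher at 24 h than at 2 h. The sensors of viral RNA IFIH1 and RIGI rose by 1.71 ± 0.18 and 1.2005 ± 0.13.

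All 10 genes tested from the PARP and APOL families rose, and 3 were called both in the 8 libraries alone and in the early ones. PARP9 and its partner DTX3L, which share a promoter region, rose by 2.86 ± 0.24 and 2.14 ± 0.13, and PARP14 by 2.43 ± 0.29. Among the apolipoprotein L genes, APOL6 was at 268 to 338 CPM without stimulus and at 969, 2330, 1769 and 1485 CPM with supernatant (2.36 ± 0.17). APOL4 had 23 reads over the supernatant libraries and none over the unstimulated ones, at least 8.06-fold higher if 3 reads are assumed over the unstimulated group. Its fitted fold depends on the prior count and is not given.

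**Figure D1:**
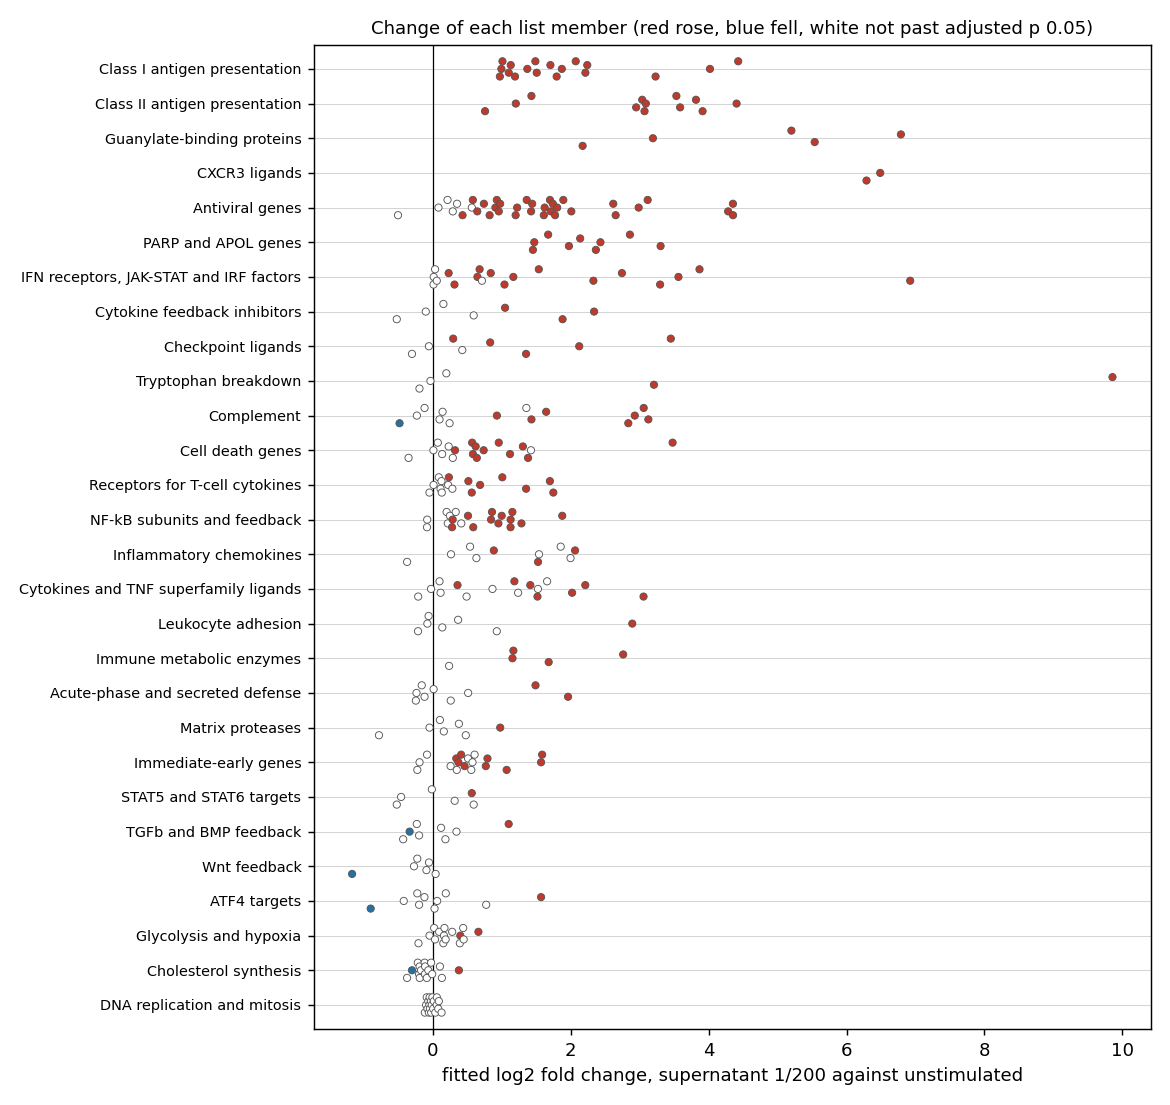
Each point is 1 gene of a list, placed on the horizontal axis at its fitted log2 fold change between supernatant 1/200 and unstimulated, with 4 libraries a side. Red points rose and blue points fell at an adjusted p under 0.05, white points did not pass, and genes with 3 or fewer reads over the unstimulated libraries are left out. All points of the class I and class II lists are red, the lowest being RFX5 at 0.76, whereas none of the 21 replication and mitosis genes is coloured.

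All 18 tested genes of MHC class I presentation rose, and 15 of them had a ratio that grew with duration, against 0.49% of all genes with a rising slope. All 18 were called in the late libraries, but 3 in the early libraries and 3 when the 8 libraries alone were fitted. NLRC5, the transactivator of class I genes, was at 2.86 to 6.34 CPM without stimulus and at 24.4, 166, 132 and 117 CPM with supernatant (4.43 ± 0.25, adjusted p = 2.22e-11). TAP1, a subunit of the transporter that brings peptides into the endoplasmic reticulum, was at 19.9 to 27.8 CPM and then at 134, 434, 690 and 622 CPM (4.02 ± 0.17). Both were already high at 2 h, with log2 ratios of 3.02 and 2.74. The chains of the complex itself came later: HLA-B was at 137, 250, 579 and 1205 CPM with supernatant against 110 to 117 CPM without (1.80 ± 0.14, with a slope of the log2 ratio of 0.88 ± 0.11 per doubling of time). HLA-C rose by 1.10 ± 0.09, HLA-E by 2.21 ± 0.10 and HLA-F by 2.24 ± 0.16. B2M, the invariant light chain, went from 867, 735, 799 and 870 CPM to 914, 1276, 1823 and 3075 CPM (0.97 ± 0.07, slope 0.48 ± 0.05). Reads of the HLA genes can be split between near-identical copies and alleles, so the values of single HLA genes are uncertain.

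The immunoproteasome, the form of the proteasome that cuts peptides for class I, rose with its activators. PSMB9 was at 8.22 to 11.4 CPM without stimulus and at 20.4, 75.9, 149 and 222 CPM with supernatant (3.23 ± 0.14, slope 0.86 ± 0.12). PSMB8 rose by 2.07 ± 0.12, PSMB10 by 1.87 ± 0.11, and the activator subunits PSME2 and PSME1 by 1.49 ± 0.06 and 1.01 ± 0.06. The subunits shared with, or replaced in, the constitutive 20S proteasome were examined after their slopes had been seen: 11 of 14 rose and 8 had a rising slope, while 3 were called without slope terms and none in the 8 libraries alone. PSMA5 was at 119, 165, 218 and 181 CPM with supernatant and at 123, 111, 106 and 93.3 CPM without (0.62 ± 0.06, adjusted p = 7.64e-09, slope 0.30 ± 0.04). PSMB5, PSMB6 and PSMA7 did not pass the test (0.05 ± 0.04, 0.11 ± 0.05 and 0.10 ± 0.03). PSMB5 and PSMB6 encode catalytic subunits that PSMB8 and PSMB9 replace. At 2 h, 13 of the 14 subunits were at or below their unstimulated value, and PSMA1 was at 200 CPM against 199 CPM.

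All 14 tested genes of MHC class II presentation rose, and their rise was late. CIITA, the transactivator of class II genes, was at 1.98 to 2.82 CPM without stimulus and at 7.49, 101, 72.2 and 62.8 CPM with supernatant (4.41 ± 0.47, adjusted p = 7.99e-07), with its highest value at 6 h. CD74, the invariant chain, was at 10.8 to 12.1 CPM without stimulus and at 13.7, 114, 544 and 975 CPM with it (3.91 ± 0.22). HLA-DRA was at 0.881 to 1.43 CPM without stimulus and at 0.681, 4.50, 23.4 and 56.0 CPM with it (2.95 ± 0.27). CD74 and HLA-DRA were highest at 24 h. HLA-DPA1 had the steepest slope of all genes named for their slope, 2.21 ± 0.29 per doubling of time (adjusted p = 4.53e-05), followed by HLA-DRA (1.93 ± 0.23), CD74 (1.78 ± 0.18) and HLA-DRB1 (1.73 ± 0.27). CTSS, the protease that trims the invariant chain, had a slope of 1.28 ± 0.30 (adjusted p = 0.0459). In the fit read at 2 h no class II gene was called, and read at 24 h all 14 were called. Fitted apart, the early libraries called none, the late ones 14 and the 8 libraries alone 5. HLA-DQA1 had 36 reads over the supernatant libraries and none over the unstimulated ones, at least 12.6-fold higher at 3 assumed reads, and HLA-DOA had 94 against 3 and was not called in 13 of 18 alternative fits. RFX5, a promoter factor for class II genes, rose by 0.76 ± 0.15.

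**Figure D2:**
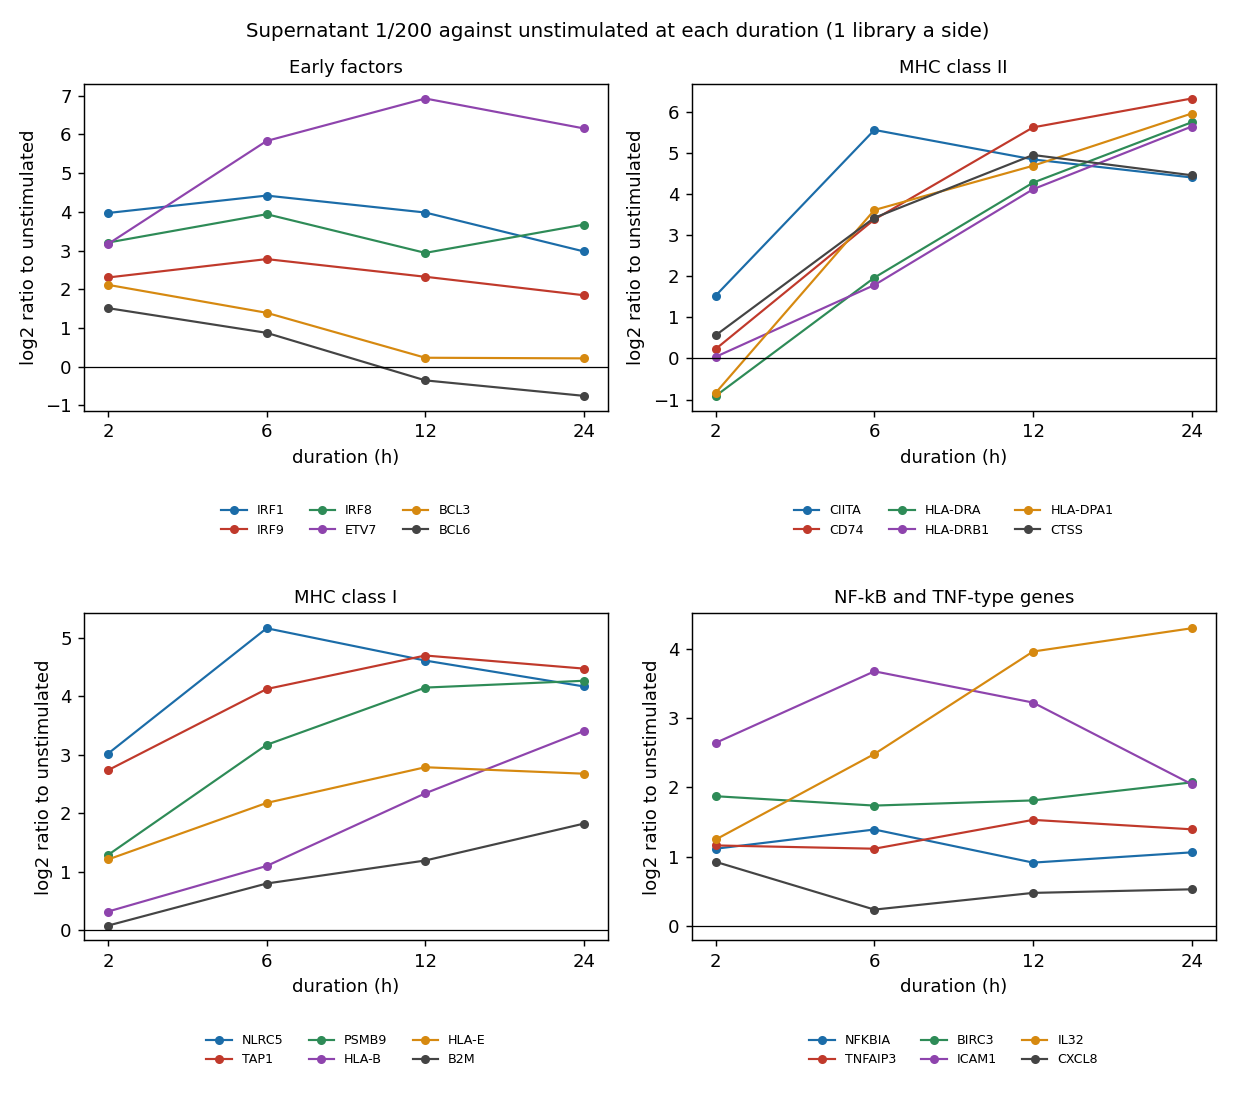
The vertical axes give the log2 ratio of supernatant 1/200 to unstimulated at each duration in hours, from 1 library a side, for genes of 4 groups. IRF1 is already at 3.97 at 2 h, CD74 goes from 0.23 at 2 h to 6.32 at 24 h, BCL3 falls from 2.11 to 0.21, and NFKBIA stays between 0.91 and 1.39.

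The 3 chemokines that bind CXCR3, the receptor that guides activated T cells, all rose. CXCL10 (ENSG00000169245) was at 0.226, 0.146, 0.787 and 0.528 CPM without stimulus and at 5.83, 46.2, 45.8 and 31.9 CPM with supernatant (6.29 ± 0.44, adjusted p = 1.19e-09). CXCL11 was at 0.0733 to 0.352 CPM without stimulus and at 1.56, 20.1, 43.1 and 30.1 CPM with it (6.49 ± 0.51). CXCL9 had 359 reads over the supernatant libraries and 3 over the unstimulated ones, a ratio of 125.7 (95% exact interval 42.7 to 612.6). No CXCR3 ligand overlapped between the groups, but the share of all genes without overlap was not determined. For all 3 the supernatant level was lowest at 2 h.

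The upstream stretches of CXCL10, CXCL9 and GBP1 are shown because these genes were among the largest rises and hold the ISRE, the element that IRF factors and STAT complexes bind. CXCL10 lies on chr4:76023598-76023727, minus strand, with the ISRE at -221 and κB motifs at -177 and -122 in capitals. CXCL9 lies on chr4:76007640-76007699, minus strand, with the ISRE at -171 in capitals, and GBP1 on chr1:89065299-89065358, minus strand, with the ISRE in its reverse orientation at -127 in capitals (all GRCh38.p14, positions from the RefSeq start).
CXCL10: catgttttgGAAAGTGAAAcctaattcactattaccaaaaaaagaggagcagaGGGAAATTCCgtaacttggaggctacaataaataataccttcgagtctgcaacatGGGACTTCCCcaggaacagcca
CXCL9: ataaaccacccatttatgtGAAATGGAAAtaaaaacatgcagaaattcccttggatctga
GBP1: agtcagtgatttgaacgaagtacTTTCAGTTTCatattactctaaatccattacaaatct
The CXCL10 stretch is the one of these 3 that also holds κB motifs in the letters searched. It is 130 bases long, while those of CXCL9 and GBP1 are 60 bases, so the promoters are not compared by this.

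Ligands that restrain immune cells rose in 6 of 9 tested cases, with 1 called in the early libraries and 4 in the late ones. CD274, which encodes PD-L1, was at 2.38 to 5.57 CPM without stimulus and at 30.4, 66.4, 47.5 and 23.1 CPM with supernatant (3.45 ± 0.29, adjusted p = 1.24e-08). PDCD1LG2, which encodes PD-L2, had 168 reads against 2, a ratio of 88.3 (95% exact interval 24.1 to 734.7), and was at 0.0973 CPM at 2 h. LGALS9, which encodes galectin-9, rose by 2.12 ± 0.17 with a slope of 0.89 ± 0.13. TNFRSF14, the ligand of BTLA, rose by 1.35 ± 0.18, CD47, a signal against phagocytosis, by 0.83 ± 0.11 and NECTIN2 by 0.29 ± 0.07. CD276 (-0.06 ± 0.05), PVR (0.43 ± 0.15) and VSIR (-0.30 ± 0.11) did not pass the test. CD274 was highest at 6 h and LGALS9 at 24 h, with 2.63, 9.74, 23.7 and 41.5 CPM.

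In tryptophan breakdown 2 of 5 tested genes rose. IDO1 is given above. WARS1, which charges tRNA with tryptophan, was at 104 to 128 CPM without stimulus and at 181, 1058, 2372 and 2638 CPM with supernatant (3.21 ± 0.19, slope 1.21 ± 0.14). The downstream enzyme KYNU (-0.04 ± 0.29) and the second dioxygenase TDO2 (0.20 ± 0.51) did not pass the test.

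Genes of NF-κB and of its feedback rose in 13 of 20 cases, with a median log2 fold change of 0.55 over the list. NFKBIA, the inhibitor that NF-κB induces first, was at 32.8 to 39.1 CPM without stimulus and at 79.8, 86.4, 70.8 and 81.8 CPM with supernatant (1.13 ± 0.18, adjusted p = 0.000125). BIRC3, an inhibitor of apoptosis, was at 52.9 to 81.4 CPM and then at 264, 272, 220 and 223 CPM (1.88 ± 0.22). TNFAIP3, which encodes the feedback enzyme A20, was at 17.4, 24.0, 13.6 and 9.95 CPM without stimulus and at 39.1, 52.2, 39.5 and 26.4 CPM with it (1.28 ± 0.36, adjusted p = 0.0228). In all 3 the supernatant libraries lay above the unstimulated ones at every duration, and their ratios showed no called slope. The subunits NFKB2 and RELB rose by 1.15 ± 0.20 and 1.13 ± 0.23 and RELA by 0.28 ± 0.07, while NFKB1 (0.33 ± 0.11, adjusted p = 0.0502) and REL (-0.09 ± 0.13) did not pass. BCL3, a nuclear partner of NF-κB, was at 25.97, 19.7, 16.6 and 24.5 CPM with supernatant against 5.87, 7.40, 14.2 and 21.1 CPM without, so its log2 ratio went from 2.11 at 2 h to 0.21 at 24 h (slope -0.59 ± 0.12, adjusted p = 0.0193). With only the 8 libraries fitted 13 members were called, with no slope terms 5, with only the 12 and 24 h libraries 3, and with only the 2 and 6 h libraries none. TNFAIP3 and RELA were not called in 8 and 7 of 18 alternative fits.

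Products that TNFα is known for were divided. ICAM1, an adhesion molecule for leukocytes, was at 35.6 to 51.2 CPM without stimulus and at 238, 459, 345 and 212 CPM with supernatant (2.89 ± 0.29, adjusted p = 3.08e-07). IL32, a cytokine that induces other inflammatory cytokines, was at 5.27, 4.76, 2.80 and 2.20 CPM without stimulus and at 12.7, 27.4, 46.4 and 46.8 CPM with it (3.06 ± 0.19, slope 0.93 ± 0.16). CXCL8, the main neutrophil chemokine, was at 13.7, 5.62, 4.56 and 3.75 CPM with supernatant and at 7.15, 4.76, 3.24 and 2.55 CPM without, and did not pass the test (0.54 ± 0.65, adjusted p = 0.689). Of 12 inflammatory chemokines 3 rose, namely CXCL2 (2.06 ± 0.39), CX3CL1 (1.53 ± 0.31) and CXCL16 (0.88 ± 0.26), the last of which was not called in 9 of 18 alternative fits. DESeq2 called 6 of the 12 and the fit of the 8 libraries alone 5. CXCL1 was above its unstimulated value at all 4 durations, at 3.22 to 4.57 CPM against 0.793 to 1.81 CPM, but did not pass (1.54 ± 0.75, adjusted p = 0.222). TNF itself was at 0 to 0.292 CPM in all 8 libraries (-0.03 ± 0.94), and VCAM1 did not pass (0.93 ± 0.52). ICAM1 was the single adhesion gene of 7 to rise.

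The stretches upstream of ICAM1 and IL32 are shown because both genes rose here and both were also high with TNFα 0.1 ng/ml. ICAM1 lies on chr19:10271000-10271079, plus strand, with a GAS motif at -75 in capitals. IL32 lies on chr16:3065278-3065337, plus strand, with overlapping κB motifs on both strands from -99 to -89 in capitals (GRCh38.p14, positions from the RefSeq start). The stretches are cut to 80 bases for ICAM1 and 60 for IL32, so a motif absent from a stretch may lie elsewhere in the promoter.
ICAM1: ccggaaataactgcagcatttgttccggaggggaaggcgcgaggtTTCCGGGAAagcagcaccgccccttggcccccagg
IL32: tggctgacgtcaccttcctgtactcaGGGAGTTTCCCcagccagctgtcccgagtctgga

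Of 18 other cytokines and TNF superfamily ligands tested, which include IL32, 7 rose, with 1 called in the 8 libraries alone and 1 in the early ones. CSF1, the growth factor of macrophages, was at 15.7 to 28.8 CPM without stimulus and at 72.7, 116, 88.9 and 74.1 CPM with supernatant (2.21 ± 0.20). The B cell factor TNFSF13B rose by 2.02 ± 0.32, and IL7 and IL15, which sustain lymphocytes, by 1.52 ± 0.27 and 1.18 ± 0.20. TNFSF15 (1.41 ± 0.39) and LIF (0.36 ± 0.09) also rose, though not in 10 and 6 of 18 alternative fits, while IL6 (1.66 ± 0.96), IL1A (0.10 ± 0.44), IL1B (0.49 ± 0.41), CSF2 (1.24 ± 1.02) and TNFSF10 (1.52 ± 0.64) did not pass the test. Among 16 receptor chains for T cell cytokines 8 rose, led by IL15RA (1.75 ± 0.16), IL2RG (1.70 ± 0.51) and IL22RA1 (1.35 ± 0.29). The 8 libraries alone gave 2 calls among the 16 and the early ones none, and IL2RG was not called in 12 of 18 alternative fits. TNFRSF1B, the second TNF receptor, was at 58.8, 124, 118 and 87.8 CPM with supernatant and at 46.4, 59.3, 44.3 and 38.2 CPM without (1.01 ± 0.10), and TNFRSF1A did not pass (0.12 ± 0.06).

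Genes of cell death and of complement rose in part. Of 20 cell death genes 12 rose and none fell, with 6 called in the 8 libraries alone and none in the early ones. CASP1, the inflammatory caspase, was at 0.262 to 1.58 CPM without stimulus and at 0.973, 5.15, 10.4 and 20.2 CPM with supernatant (3.48 ± 0.36). The death receptor FAS rose by 1.38 ± 0.22, the pore protein GSDMD by 1.31 ± 0.12, BAK1 by 1.12 ± 0.10 and CASP8 by 0.74 ± 0.11, and the survival gene MCL1 also rose (0.64 ± 0.11). RIPK1 (0.07 ± 0.06) and BCL2L1 (0.23 ± 0.09) did not pass the test. In complement 7 of 14 genes rose, among them C1S (3.06 ± 0.30), SERPING1 (2.93 ± 0.40), C1R (2.83 ± 0.21), CFB (1.43 ± 0.14) and C3 (0.93 ± 0.28), which was not called in 12 of 18 alternative fits. C4A and C4B also rose (3.13 ± 0.54 and 1.64 ± 0.31), but they are near-identical and reads can be split between them. CLU, which restrains complement, fell by 0.48 on the log2 scale (SE 0.15, adjusted p = 0.0335), and was not called in 14 of 18 alternative fits.

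Of 6 immune metabolic enzymes 4 rose. STEAP4, a metalloreductase, was at 3.11, 3.75, 1.34 and 0.349 CPM with supernatant against 0.0733 to 0.352 CPM without (2.76 ± 0.46), and at 24 h both groups were at 0.35 CPM to 2 digits. NNMT rose by 1.68 ± 0.41, SOD2 by 1.17 ± 0.22 and GCH1, which starts tetrahydrobiopterin synthesis, by 1.15 ± 0.16. The serum amyloid genes SAA2 and SAA1 rose by 1.96 ± 0.33 and 1.49 ± 0.21 and were the 2 of 9 acute-phase and secreted defense genes that did, while LCN2 did not pass (0.01 ± 0.10). Of 18 immediate-early genes 9 rose, among them JUNB (1.58 ± 0.22), ATF3 (1.57 ± 0.38) and KLF4, at 75.0 to 115 CPM against 34.6 to 65.1 CPM (1.07 ± 0.07). Without slope terms 4 of the 18 were called. Of 7 genes listed for matrix proteolysis, PLAUR, the receptor of the protease urokinase and not a protease itself, was the 1 called (0.98 ± 0.15).

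Falls were smaller than rises among the genes that met the naming rule, which asks for a minimum mean level and the same sign at all 4 durations. METTL7A, a methyltransferase-like protein, was at 1.58, 1.91, 4.81 and 19.5 CPM without stimulus and at 1.17, 0.937, 0.738 and 4.71 CPM with supernatant (-1.55 ± 0.32, adjusted p = 0.00142). FABP4, a fatty acid carrier, was at 30.9, 29.01, 43.6 and 54.0 CPM without stimulus and at 30.4, 21.3, 14.9 and 8.12 CPM with it (-1.19 ± 0.34, adjusted p = 0.0279). In both genes the unstimulated level was higher at 24 h than at 2 h, and FABP4 with supernatant was lower at each later duration. FABP4 was not called in 14 of 18 alternative fits. AXIN2, a feedback target of Wnt signalling, was at 3.61, 3.88, 8.05 and 16.3 CPM without stimulus and at 1.95, 2.53, 2.35 and 6.37 CPM with it (-1.17 ± 0.28, adjusted p = 0.00507). It was the 1 of 6 tested Wnt feedback genes that was called. GPER1, a membrane estrogen receptor, fell by 1.26 (SE 0.20, adjusted p = 5.87e-05), and SLC40A1, the iron exporter ferroportin, by 1.34 (SE 0.31).

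The other genes named here for their falls by the same rule lay between -1.32 and -1.04. They were SOX21-AS1 (-1.32), GPRIN3 (-1.24), ENPP5 (-1.11), KRBA2 (-1.09), ENSG00000261602 (-1.08), the kinase anchor AKAP5 (-1.07), the exchange factor FGD3 (-1.06) and the long noncoding RNA HOTAIRM1 (-1.04). Among the falls named here the groups did not overlap for SLC40A1 and ENSG00000261602 and overlapped for the others. The share of all genes without overlap was not determined, so these cases are description only. PRSS23, a serine protease at higher level, was at 298, 266, 266 and 281 CPM without stimulus and at 274, 224, 166 and 153 CPM with it (-0.48 ± 0.06, slope -0.22 ± 0.05).

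Several programs held few calls in number, beside 10.5% called among all genes. The lists are short, so a small number of calls does not show a share below that of all genes. None of 21 genes of DNA replication and mitosis was called by edgeR or by DESeq2, and their fitted changes lay between -0.12 and 0.13, with MKI67 at 461 to 571 CPM against 490 to 574 CPM (-0.02 ± 0.07). Of 17 cholesterol synthesis genes 1 rose and 1, SC5D, fell (-0.30 ± 0.08). Of 15 genes of glycolysis and hypoxia EGLN3 (0.66 ± 0.13) and ADM (0.40 ± 0.11) rose. Of 10 ATF4 targets ATF3 rose and GDF15 fell (-0.90 ± 0.24), and of 8 genes of TGFβ and BMP feedback 1 rose and 1, ID2, fell (-0.34 ± 0.11). Among these calls, ID2 was lost in 12 of 18 alternative fits, ADM and SC5D in 10 each and GDF15 in 9. None of the 10 tested epithelial markers was called.

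The number of genes called differed with the duration at which the fit was read. Read at 2 h, the fit called 68 genes, of which 67 (0.45%) were higher and 1 (0.00672%) lower, and read at 24 h it called 1509 (10.1%), 959 higher (6.44%) and 550 lower (3.69%). This fitted 2 h set held 7 of the 19 interferon and JAK-STAT genes, 8 of 18 class I genes, 3 of 20 NF-κB genes and none of the 14 class II genes. Both readings are ends of a straight line in log2 duration, so the counts do not date the start of a response. The median fitted change at 2 h was 6.49 for CXCR3 ligands, against an observed median log2 ratio of 3.06. These values were 4.24 and 2.71 for guanylate-binding proteins, 0.81 and 0.47 for JAK-STAT genes and 0.59 and 0.53 for class I genes. IRF9 was at 37.4 CPM at 2 h against 7.45 CPM. A slope with duration was called for 79 genes (0.531%), 73 rising (0.49%) and 6 falling (0.0403%), and 72 of the 73 had also risen overall. The 6 that fell relative to unstimulated cells over time were BCL6 (-0.67 ± 0.11), BCL3, the secreted protein C1QTNF6 (-0.42 ± 0.09), EVI5L (-0.33 ± 0.08), the nuclear RNA NEAT1 (-0.30 ± 0.07) and PRSS23. BCL6, a transcriptional repressor, was at 20.9, 14.9, 12.9 and 21.99 CPM with supernatant and at 7.23, 8.06, 16.6 and 37.3 CPM without, so it was above its control at 2 and 6 h and below it at 12 and 24 h.

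The number of called slopes depended on the 2 h libraries: it was 11 without the unstimulated library of that duration and 19 without the supernatant library. With only the 2 and 6 h libraries, 47 genes differed from unstimulated, and with only the 12 and 24 h libraries 1057. Leaving out 1 library moved the count of changed genes most for the supernatant at 12 h, to 910. It became 956 with the supernatant 2 h library left out, 946 with the unstimulated 12 h library left out and 990 with that of 2 h left out.

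The first direct contrast asked how the 1/200 supernatant stood beside IFNγ at 1 ng/ml. Of 14890 genes, 4 (0.0269%) were higher with supernatant and none was lower, by edgeR with Benjamini-Hochberg adjustment. At an unadjusted p under 0.05 there were 419 genes, and DESeq2 called 13. Both treatments were compared with unstimulated cells through the same control libraries, so only the direct contrast is used here. For IRF1 the 95% interval of the log2 difference was -0.54 to 0.65, for TAP1 -0.21 to 0.38, for GBP1 -0.53 to 0.40 and for CIITA -0.82 to 0.46. A miss of the threshold does not show that the 2 treatments act alike, and the intervals say how large a difference could remain.

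The 4 genes that were higher are a chemokine, a cytokine and 2 genes of NF-κB signalling. CXCL10 was at 1.78, 16.9, 16.95 and 9.55 CPM with IFNγ 1 ng/ml, against 5.83, 46.2, 45.8 and 31.9 CPM with supernatant (1.499 ± 0.25, adjusted p = 0.0209). IL32 (ENSG00000008517) was at 7.10, 11.25, 19.35 and 18.7 CPM with IFNγ, against 12.7, 27.4, 46.4 and 46.8 CPM (1.18 ± 0.15, adjusted p = 0.0014). Supernatant was above IFNγ at all 4 durations in both genes. NFKBIE (ENSG00000146232), an inhibitor of NF-κB, was at 9.64, 20.6, 15.6 and 13.5 CPM with IFNγ and at 24.1, 27.5, 28.1 and 17.7 CPM with supernatant (0.73 ± 0.12, adjusted p = 0.00787). IRAK2 (ENSG00000134070), a kinase of IL-1 receptor and Toll-like receptor signalling, was at 18.7, 25.3, 23.2 and 44.4 CPM with IFNγ and at 41.2, 36.8, 35.4 and 62.8 CPM with supernatant (0.70 ± 0.12, adjusted p = 0.0209). IRAK2 with IFNγ was below its unstimulated values of 23.3, 26.9 and 27.6 CPM at 2, 6 and 12 h, and with TNFα 0.1 ng/ml it was at 127, 97.5, 65.9 and 51.5 CPM.

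**Figure D3:**
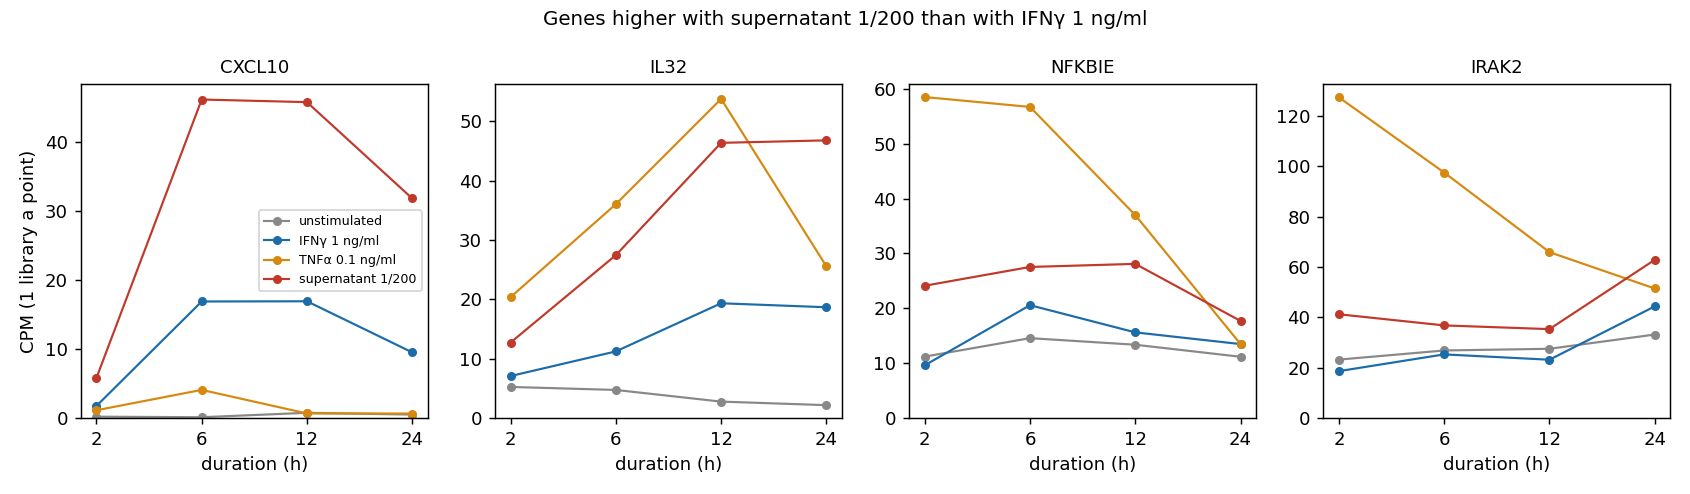
The vertical axes give CPM and the horizontal axes duration in hours for the 4 genes higher with supernatant 1/200 than with IFNγ 1 ng/ml, with 1 library a point. The supernatant line lies above the IFNγ line at all durations, and the TNFα 0.1 ng/ml line is the highest at 2 h for IL32, NFKBIE and IRAK2 but not for CXCL10.

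These 4 calls depended on the fit. IL32 alone stayed past the threshold when each library of the contrast was left out in turn, and CXCL10, NFKBIE and IRAK2 lost it in some of these fits, leaving 1 to 3 genes. None was called with only the 2 and 6 h libraries, with only the 12 and 24 h libraries, without the slope terms or without the duration factor, while a fit of only these 8 libraries called 141 genes, 114 of them higher with supernatant. Other NF-κB genes had positive differences that did not pass, such as BIRC3 (1.13 ± 0.21, adjusted p = 0.0794), RELB (0.90 ± 0.22), NFKBIA (0.80 ± 0.17) and NFKB2 (0.74 ± 0.19). The median difference was 0.28 over the 20 NF-κB genes, 0.64 over the 12 inflammatory chemokines, -0.01 over the 18 class I genes and -0.27 over the 14 class II genes, beside 0.00 over all genes.

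The second contrast set the supernatant beside TNFα at 0.1 ng/ml, and 1052 genes (7.07%) differed, 653 (4.39%) higher and 399 (2.68%) lower with supernatant. The balance turned with time: the early libraries gave 49 higher and 149 lower, and the late ones 468 and 84. All 5 guanylate-binding proteins, 33 of 36 antiviral genes, 17 of 18 class I genes, 13 of 14 class II genes and the 3 CXCR3 ligands were higher with supernatant. IDO1, at 0.178 to 1.95 CPM with TNFα, differed by 7.91 ± 0.28 and GBP5 by 4.79 ± 0.38. In the other direction, 14 of 20 NF-κB genes, 5 of 12 inflammatory chemokines and 5 of 18 cytokines were lower with supernatant. CXCL8 was at 571, 102, 32.4 and 4.84 CPM with TNFα against 13.7, 5.62, 4.56 and 3.75 CPM with supernatant (-3.39 ± 0.47, adjusted p = 3.51e-05). TNF was at 17, 3.36, 1.85 and 0.17 CPM against 0 to 0.292 CPM (-4.42 ± 0.66), and LTB at 4.45, 9.62, 8.07 and 0.849 CPM against 0.0671 to 0.281 CPM (-5.11 ± 0.61). With TNFα these 3 genes were lowest at 24 h.

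IL1A (-2.64 ± 0.35), SERPINA3 (-2.54 ± 0.43) and the T cell costimulator TNFRSF9 (-2.33 ± 0.28) were the other genes named as lower. IL1A at 2 h was at 295 CPM under TNFα and at 29.2 CPM under supernatant. IL32 and ICAM1 did not differ past the threshold from TNFα 0.1 ng/ml, with log2 differences of -0.15 (95% interval -0.43 to 0.14) and 0.16 (95% interval -0.38 to 0.70). ICAM1 took another course, at 611, 630, 183 and 68.4 CPM with TNFα against 238, 459, 345 and 212 CPM with supernatant.

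**Figure D4:**
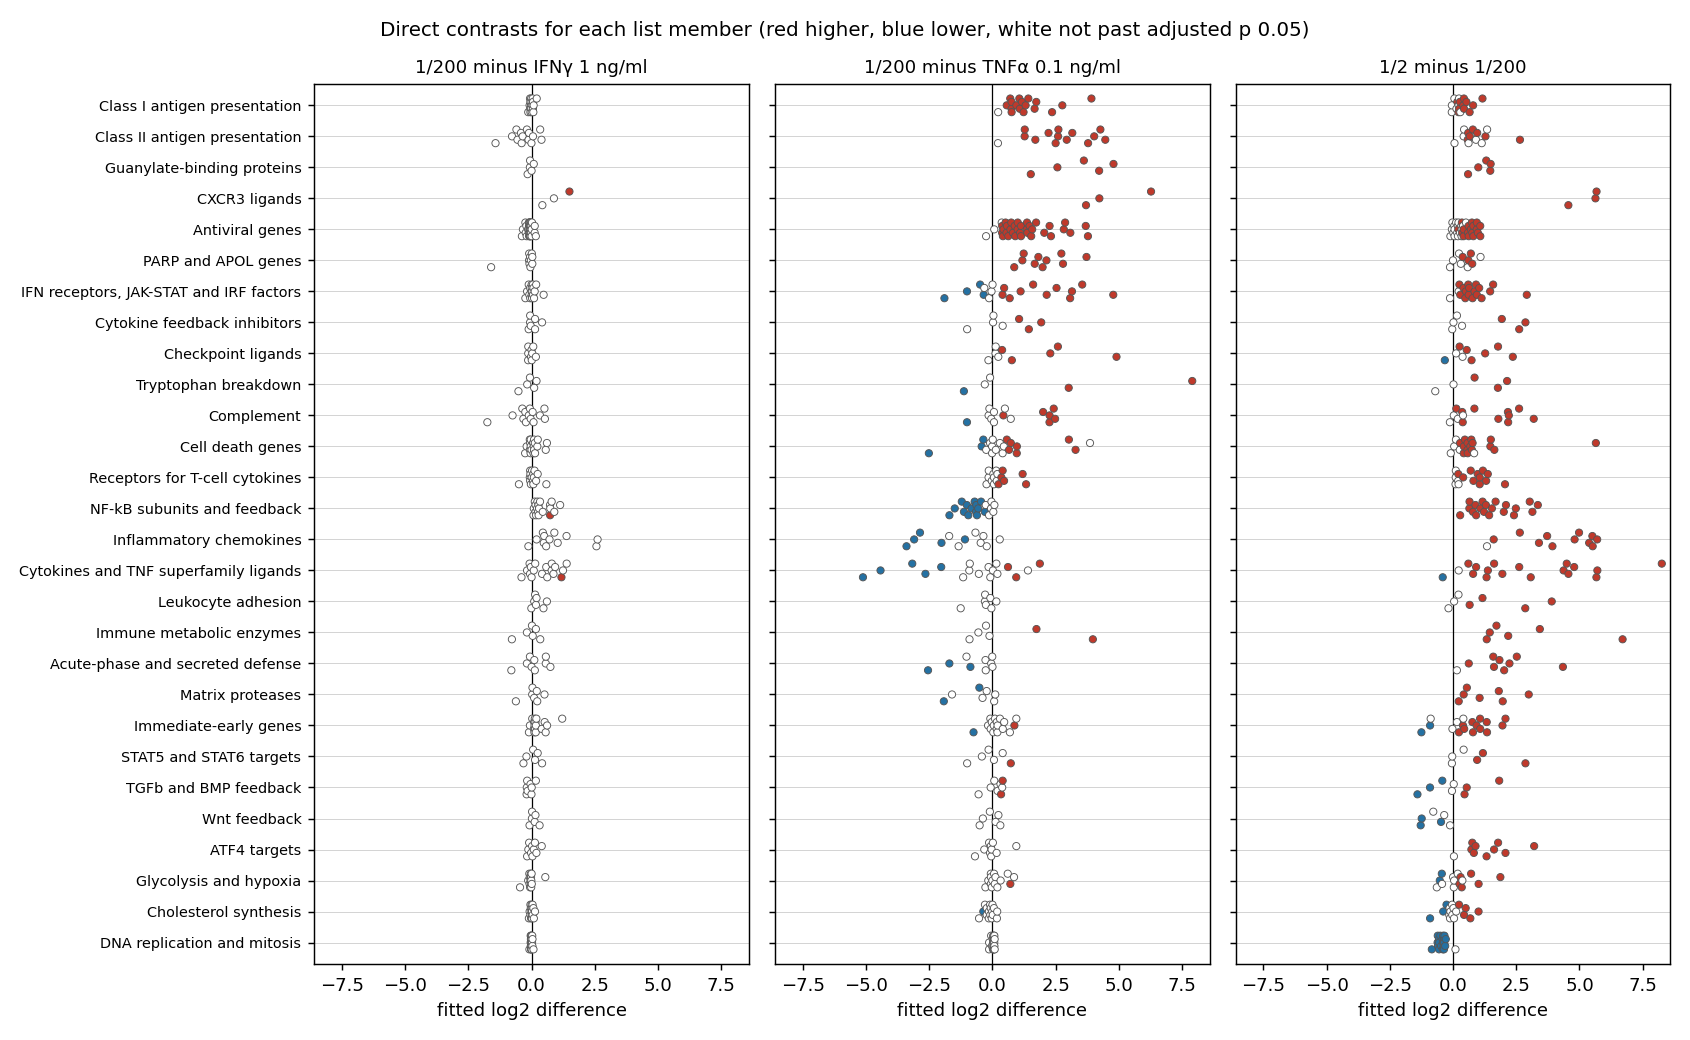
Each point is 1 gene of a list, placed at its fitted log2 difference between supernatant 1/200 and IFNγ 1 ng/ml (left), between supernatant 1/200 and TNFα 0.1 ng/ml (middle) and between supernatant 1/2 and 1/200 (right). Red is higher and blue lower at an adjusted p under 0.05. Against IFNγ 3 points are coloured among these lists (CXCL10, IL32 and NFKBIE), against TNFα 14 of 20 NF-κB genes are blue, and at 1/2 all 20 are red.

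The third contrast compared the 2 stronger dilutions, and 4611 genes (31%) differed, 2464 (16.5%) higher and 2147 (14.4%) lower at 1/2 than at 1/200. Genes of NF-κB were higher at 1/2 in all 20 cases, inflammatory chemokines in 11 of 12 and cytokines in 16 of 18. CXCL8 was at 1281, 228, 90.3 and 129.9 CPM at 1/2 (5.38 ± 0.44 above 1/200), CXCL1 differed by 5.70 ± 0.39 and IL6 by 5.67 ± 0.44. CXCL9 was at 12.8, 191, 956 and 3272 CPM at 1/2 against 1.26, 5.71, 10.9 and 10.7 CPM at 1/200 (5.68 ± 0.13), and CXCL10 at 121.5, 1617, 3561 and 3802 CPM (5.63 ± 0.21). Of 19 interferon and JAK-STAT genes 17 were higher at 1/2, with a median difference of 0.64, and IRF1 differed by 1.13 ± 0.29. IRF9 (-0.12 ± 0.08) did not pass. Of 18 class I genes 11 were higher at 1/2, with a median difference of 0.26, and of 14 class II genes 7, with a median of 0.72.

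ADORA2A, an adenosine receptor, differed by 8.22 ± 0.76, at 6.89, 30.2, 27.2 and 38.02 CPM at 1/2 and at 0 to 0.389 CPM at 1/200, and TNF (5.71 ± 0.54) and BCL2A1 (5.65 ± 0.44) were the other genes named by the rule for the largest differences. Genes of replication and mitosis, of which none was called at 1/200 against unstimulated, were lower at 1/2 than at 1/200 in 20 of 21 cases, with MKI67 at 445, 519, 352 and 278.5 CPM (-0.39 ± 0.07). The named genes lower at 1/2 were PADI1 (-3.02 ± 0.29), the dioxin-responsive enzyme CYP1A1 (-2.76 ± 0.29), the BMP antagonist NOG (-2.09 ± 0.32), ENSG00000284820 (-1.9999 ± 0.67), APLN (-1.92 ± 0.47) and CDK15 (-1.90 ± 0.33). CYP1A1 was at 17.8, 8.53, 1.81 and 3.67 CPM at 1/200 and at 3.96, 1.88, 0.214 and 0.219 CPM at 1/2. The supernatant at 1/20000 was also used as the reference in place of unstimulated cells, and 961 genes then differed at 1/200, 768 of them higher.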

How the data were processed

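Each library gave 1 salmon table. The deposited values are expected counts (reads estimated per gene) and TPM (levels per length) made by the authors with salmon, per the file headers. GRCh38, STAR, Trim Galore, UMI-tools and DESeq2 also stand in the submitters' processing notes, without version or role. Expected counts were rounded to whole numbers, because 18.6% to 20.6% of all values in a library were not whole. TPM entered no test, and no TPM value is printed.

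edgeR 4.0.16 (R 4.3.3, limma 3.58.1) was fitted to all 44 libraries, with duration as a factor, treatment, and a slope of each treatment on log2 duration, leaving 20 residual degrees of freedom. TMM factors were 0.895 to 1.083. Genes needed a minimum count of 10 and a total of 15, which left 14890 of 33538. Robust quasi-likelihood F tests were adjusted by Benjamini-Hochberg over all 14890 genes. Errors are SE, intervals are 95%, CPM are TMM-scaled, and log2 ratios used a prior count of 2. The median biological coefficient of variation was 7.65%. Pairing by duration comes from the labels, and same-duration libraries were the closest ones. The scripts were tested on simulated counts.

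The named genes were the 15 with the largest fitted rise and fall among called genes at a mean log2 CPM of at least 0, 6 each way for slopes and for the other contrasts, and the members of fixed lists. Members and lists were chosen with earlier results of these data known, and the constitutive proteasome list after its values were seen. Alternatives were RLE factors, DESeq2 1.42.0, no filter, no robust step, other model terms, library subsets and supernatant 1/20000 as reference. The fits of 8 libraries alone and of the early or late libraries alone had no slope terms. Intervals on pooled reads cover counting error only. Some genes that meet the naming rule or belong to a list are counted but not reported by name here.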

Additional observations from a re-analysis of the deposited data

Results flagged for a closer look

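A change of the response with duration, tested as the slope of the log2 ratio per doubling of time, was called for 12 named genes. It was 2.21 for HLA-DPA1, 1.93 for HLA-DRA, 1.78 for CD74, 1.73 for HLA-DRB1, 1.28 for CTSS and 1.21 for WARS1. It was -0.67 for BCL6, -0.59 for BCL3, -0.42 for C1QTNF6, -0.33 for EVI5L, -0.30 for NEAT1 and -0.22 for PRSS23. Without the unstimulated 2 h library 11 of the 12 lost the call, with CD74 the exception, and without the supernatant 2 h library 8 did. EVI5L lost it in 10 alternatives and CTSS in 9.

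Of 197 series of 4 values, 191 were log2 ratios of single genes and the others were library measures such as depth. In 11 series, all of log2 ratios, 1 duration stood apart from the other 3 past Dixon's 95% critical value. Chance gives about 1 in 20. These durations are points of a course and not replicates. The 2 h ratio stood below the rest for TRIM22 (1.01, others 4.36 to 5.03), OAS2 (-0.20, others 3.75 to 3.98), RFX5 (0.26, others 0.86 to 0.97), TNFSF13B (-0.70, others 2.45 to 2.80) and IL2RG (-0.24, others 1.48 to 1.81). For PADI1 the 2 h ratio of 0.14 stood above the others. The 6 h ratio stood apart for TNFSF10 (3.42, others 0.50 to 0.97) and SOCS2 (-1.36, others -0.18 to -0.10). The 12 h ratio did so for RELA (0.47) and KRBA2 (-2.15), and the 24 h ratio for SOCS3 (0.32, others 1.24 to 1.41).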

How the results depend on the processing

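No named gene reversed its direction where either fit called it, though uncalled values near 0, such as that of TNF, changed sign. The count of genes changed by supernatant 1/200, 1564, became 517 with no replicate block (the duration factor that carries the pairing), 520 when slopes were dropped, 472 when the 8 libraries alone were fitted, 47 in the early libraries (2 and 6 h), and 961 against supernatant 1/20000. It was 1555 with RLE factors, 1279 with no filter and 1405 with DESeq2, and 910 to 1431 with single libraries left out. The 79 slopes became 24 without the block and 129 with DESeq2, and 11 to 102 with single libraries left out. The 4 genes above IFNγ 1 ng/ml became 0 without the block, 0 without slope terms, 0 with 2 and 6 h, 0 with 12 and 24 h, 141 with only 8 libraries, 13 with DESeq2, and 1 to 3 with single libraries left out. Against TNFα 0.1 ng/ml, 1052 became 481, 427, 297, 198 and 552 without the block, without slope terms, with 8 libraries, with 2 and 6 h and with 12 and 24 h. Between supernatant 1/2 and 1/200, 4611 became 2516 without the block, 1087 with 8 libraries and 635 with 2 and 6 h, and 2891 to 4383 with single libraries left out, lowest without the 1/200 library of 2 h. The cause of these shifts was not tested, but subsets also hold fewer samples. The 8-library, early and late subsets also left out the slope terms. Of the named genes called against unstimulated, PADI1 lost its call in 15 of 18 alternatives, CLU and FABP4 in 14, HLA-DOA in 13, C3, ENPP5, ID2 and IL2RG in 12, ADM, SC5D and TNFSF15 in 10, CXCL16 and GDF15 in 9 and TNFAIP3 in 8. Counts of a few reads limit CXCL9, GBP7 and the other genes given as pooled ratios.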
